A study of Mus musculus with 2 samples.

Results

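Collagen has to be hydroxylated and folded inside the cell and cross-linked outside it before it can bear load. The genes described here are 10 enzymes and chaperones of that sequence, taken by symbol from the 32285 genes of the count tables: the lysyl oxidases Lox, Loxl1, Loxl2, Loxl3 and Loxl4, the lysyl hydroxylases Plod1 and Plod2, the prolyl 4-hydroxylase alpha subunits P4ha1 and P4ha2, and the collagen chaperone Serpinh1. All 10 were found in both libraries. Their transcripts were counted in single cells of mouse periodontal ligament, the tissue that holds a tooth root in its socket, after orthodontic tooth movement (OTM). The OTM library came from the maxillary left first molar of male C57BL/6J mice aged 8 weeks, pulled mesially with a force of 10 g for 6 days. The control library came from the unloaded right side, and both libraries shared strain, sex and age. Each library pooled tissue from 5 mice, and whether the same mice gave both sides was not given in the sources used here. The tissue was whatever adhered to roots and sockets, so it also held bone-lining, epithelial and blood cells.

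Prolyl 4-hydroxylase converts prolines of the collagen chain, which lets the triple helix stay folded at body temperature. Lysyl hydroxylases act on lysines in the same compartment, and Plod2 is known for acting on the telopeptides, where hydroxylation sets the kind of cross-link that forms. Serpinh1 (also called HSP47) binds the folded procollagen helix on its way to the Golgi. Lysyl oxidases work outside the cell, where they oxidize lysines of collagen and elastin so that the chains join.

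The control library held 348 cells after filtering and the OTM library 1412, from 369 and 1539 barcodes, against 5000 cells targeted per sample in the labels. The cells had medians of 14877 and 19583 unique molecular identifiers (UMIs, one per captured transcript), and the libraries shared 0 barcodes. The 10 genes were left out of the genes used for clustering and are in no marker list, so no cell class was defined by them. With 1 library per group no spread between animals can be estimated, so no p-value is given. Intervals are exact 95% intervals (Poisson for levels, binomial for shares, conditional binomial for ratios) and cover counting error only. In all, 115 control and 513 OTM cells were fibroblast-like, and 39 and 142 were osteoblast lineage-like. Levels are UMIs scaled to a class total of 1000000 (CPM). Tags from the 3' end are counted, so a level is compared between cells for 1 gene and not between genes.

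RefSeq promoter entries matched 5 of the 10 genes (Plod1, P4ha1, P4ha2, Serpinh1 and Loxl4). The 250 bases before the RefSeq start are printed for 4 of them because these 4 are the genes found in several cell classes below, while Loxl4 had too few UMIs to place. The windows lie at chr10:59323046-59323295 (P4ha1, plus strand), chr11:54100674-54100923 (P4ha2, plus strand), chr4:147936777-147937026 (Plod1, minus strand) and chr7:99353240-99353489 (Serpinh1, minus strand) of GRCm38.p6. For P4ha2 the gene in the GENCODE annotation starts further upstream, so its window lies inside the annotated gene. Each is written 5′ to 3′ on the strand of its gene, and capitals mark the 5-letter core of the hypoxia response element, ACGTG or GCGTG, on either strand.
P4ha1: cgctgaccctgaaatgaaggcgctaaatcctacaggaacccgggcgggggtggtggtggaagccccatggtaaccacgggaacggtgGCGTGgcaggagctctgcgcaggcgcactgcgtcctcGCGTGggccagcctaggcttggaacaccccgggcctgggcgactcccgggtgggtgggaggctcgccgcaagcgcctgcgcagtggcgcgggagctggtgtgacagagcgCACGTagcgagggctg
P4ha2: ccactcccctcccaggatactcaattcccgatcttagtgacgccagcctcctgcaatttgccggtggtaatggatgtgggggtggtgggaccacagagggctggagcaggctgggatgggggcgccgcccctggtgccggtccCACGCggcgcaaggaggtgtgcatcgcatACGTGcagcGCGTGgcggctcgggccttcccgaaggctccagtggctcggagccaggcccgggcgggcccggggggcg
Plod1: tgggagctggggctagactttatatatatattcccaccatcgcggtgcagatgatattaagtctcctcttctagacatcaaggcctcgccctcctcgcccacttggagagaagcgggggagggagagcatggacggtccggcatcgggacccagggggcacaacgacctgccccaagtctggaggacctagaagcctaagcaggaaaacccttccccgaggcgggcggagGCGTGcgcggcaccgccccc
Serpinh1: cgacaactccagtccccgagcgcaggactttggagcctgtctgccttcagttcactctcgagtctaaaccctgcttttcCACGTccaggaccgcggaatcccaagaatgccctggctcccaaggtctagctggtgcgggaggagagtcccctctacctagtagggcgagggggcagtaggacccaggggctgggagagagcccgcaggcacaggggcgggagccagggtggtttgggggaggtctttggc
P4ha1 and P4ha2 each held 3 such cores, Plod1 and Serpinh1 each held 1, and 38.6% of 27025 promoter windows of the same length held at least 1. The GC box GGGCGG was found 2 times for Plod1 and P4ha2 and 1 time for P4ha1 and Serpinh1, on either strand, and 32.9% of all windows held it. The G and C share was 69.6% for P4ha1, 70% for P4ha2, 61.6% for Plod1 and 63.6% for Serpinh1, above the median of 52% over all windows. A match describes these letters and is not evidence of binding.

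The annotation (GRCm38) puts Loxl1 at chr9:58287738-58313186, Loxl2 at chr14:69609068-69695834, Loxl3 at chr6:83034173-83052562 and Loxl4 at chr19:42593982-42612813. Plod1 lies at chr4:147909753-147936767, Plod2 at chr9:92542223-92608428 and Serpinh1 at chr7:99345376-99353239. P4ha1 lies at chr10:59323296-59373304 and P4ha2 at chr11:54100095-54131665. No 2 of the 10 genes share a stretch of 50 bases in any annotated transcript (0 of 45 pairs). Only Loxl2 and Loxl3 overlap another annotated gene on their own strand, in each case a microRNA gene.

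The genes differed in how far they were held by stromal cells. Lox, Loxl1, Loxl2, Loxl3 and Plod2 had at least 95.3% of their control UMIs and at least 95.1% of their OTM UMIs in stromal cells, meaning the fibroblast-like, mural-like and osteoblast lineage-like classes. Lox was detected in 82.3% of 513 OTM fibroblast-like cells and 90.1% of 142 OTM osteoblast lineage-like cells, against 1 of 162 neutrophil-like cells. Neutrophils were assumed to lack these genes and taken as the measure of free RNA, at a median depth of 5788 UMIs against 22685 in OTM fibroblast-like cells. For P4ha1 and Plod1 these cells were not blank. In the OTM library 28 P4ha1 UMIs lay in 19 of 162 neutrophil-like cells and 24 Plod1 UMIs in 11, while Plod2 had 0 UMIs. Whether the P4ha1 and Plod1 UMIs were free RNA was not tested. After thinning every cell to 2000 UMIs, the Lox shares were 35.9% and 51.8%, and 0 of 158 neutrophil-like cells. Among the named classes, a stromal class had the highest share of OTM cells for 9 of the 10 genes, both before and after thinning. Mural-like cells, with 35 OTM cells, held Lox at 104 CPM and Loxl1 at 70.4 CPM (interval 54.4 to 89.6), against 54.5 CPM (50.6 to 58.6) for Loxl1 in OTM fibroblast-like cells. The mural-like cells of the OTM library also held fibroblast markers at 3158 CPM (497 CPM in the 6 control cells) and endothelial markers at 1736 CPM (261 CPM in control), and 24.7% of their Lox UMIs were in 1 cell. The part of these in the mural-like levels was not tested. The stromal share of Serpinh1 was 96.6% in the control and 88.7% in the OTM library. P4ha2 had 88% and 82.8%, P4ha1 74.8% and 71.1%, and Plod1 62.4% and 44.6%. Of the control cells 4.02% were endothelial-like, and of the OTM cells 14.4%. Loxl4 had 86.7% of its UMIs in stromal cells of either library, from 15 and 60 UMIs in all.

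Plod1, the lysyl hydroxylase of the helical domain, was the gene whose highest share among the named classes lay outside the stroma. Its level was 148 CPM (42 UMIs) in the 14 control endothelial-like cells and 130 CPM (747 UMIs) in the 203 OTM ones. Of the 42 control UMIs, 35.7% were in 1 cell. With under 20 cells, control endothelial-like levels are given as values only, here and below. In fibroblast-like cells Plod1 was at 33.7 CPM (82 UMIs) in control cells and 50.3 CPM (660 UMIs) in OTM cells. Endothelial-like cells thus held 36.5% of all OTM Plod1 UMIs. At 2000 UMIs per cell, Plod1 was detected in 19.3% of OTM endothelial-like cells (interval 14.0 to 25.5%) and 8.17% of fibroblast-like cells (5.92 to 10.9%). Summed fibroblast markers in endothelial-like cells were 17.6 CPM on the control side and 280 CPM on the loaded side, and 11 of the 15 were at 0 in the control. Lox, which fibroblast-like cells held at 335 CPM, was at 0 UMIs in control and 3.82 CPM in OTM endothelial-like cells.

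P4ha1 was found in most classes. In macrophage or monocyte-like cells it was 107 CPM (53 UMIs) in control cells and 63.2 CPM (202 UMIs) in OTM cells, and in endothelial-like cells 106 and 85.4 CPM. Epithelial-like cells held 80.7 and 57.3 CPM, and fibroblast-like cells 107 and 142 CPM. Its paralog P4ha2 was at 0 UMIs in control and 2.19 CPM in OTM macrophage or monocyte-like cells, while its fibroblast-like level was 64.9 and 81.8 CPM. The myeloid class thus held P4ha1 in both libraries, and P4ha2 at 0 and 7 UMIs. The make-up of this class differed between the libraries: summed osteoclast markers were 320 CPM in control and 12934 CPM in OTM cells, macrophage or monocyte markers 14792 and 5630 CPM, dendritic cell markers 11724 and 3077 CPM and neutrophil markers 360 and 2594 CPM. Their part in the P4ha1 levels was not tested.

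Serpinh1 was detected in 98.3% of control and 98.2% of OTM fibroblast-like cells. Its level was 514 CPM in control and 846 CPM in OTM endothelial-like cells, 204 and 145 CPM in epithelial-like cells, and 22.1 and 28.8 CPM in macrophage or monocyte-like cells. Neutrophil-like cells held 2 control UMIs and 76 OTM UMIs, of which 44 were in 1 cell. Single cells also carried most UMIs of some genes in small classes. All 14 Lox UMIs of the 17 OTM T or NK-like cells were in 1 cell. Of the 38 Loxl2 UMIs of the 28 OTM erythroid-like cells, 35 were in 1 cell. P4ha1 was more spread, with 5 UMIs in 4 of the OTM T or NK-like cells. That class also held mast cell or basophil markers, at 32996 CPM in control and 5348 CPM in OTM cells. Its T or NK markers were at 1744 and 3600 CPM.

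**Figure D1:**
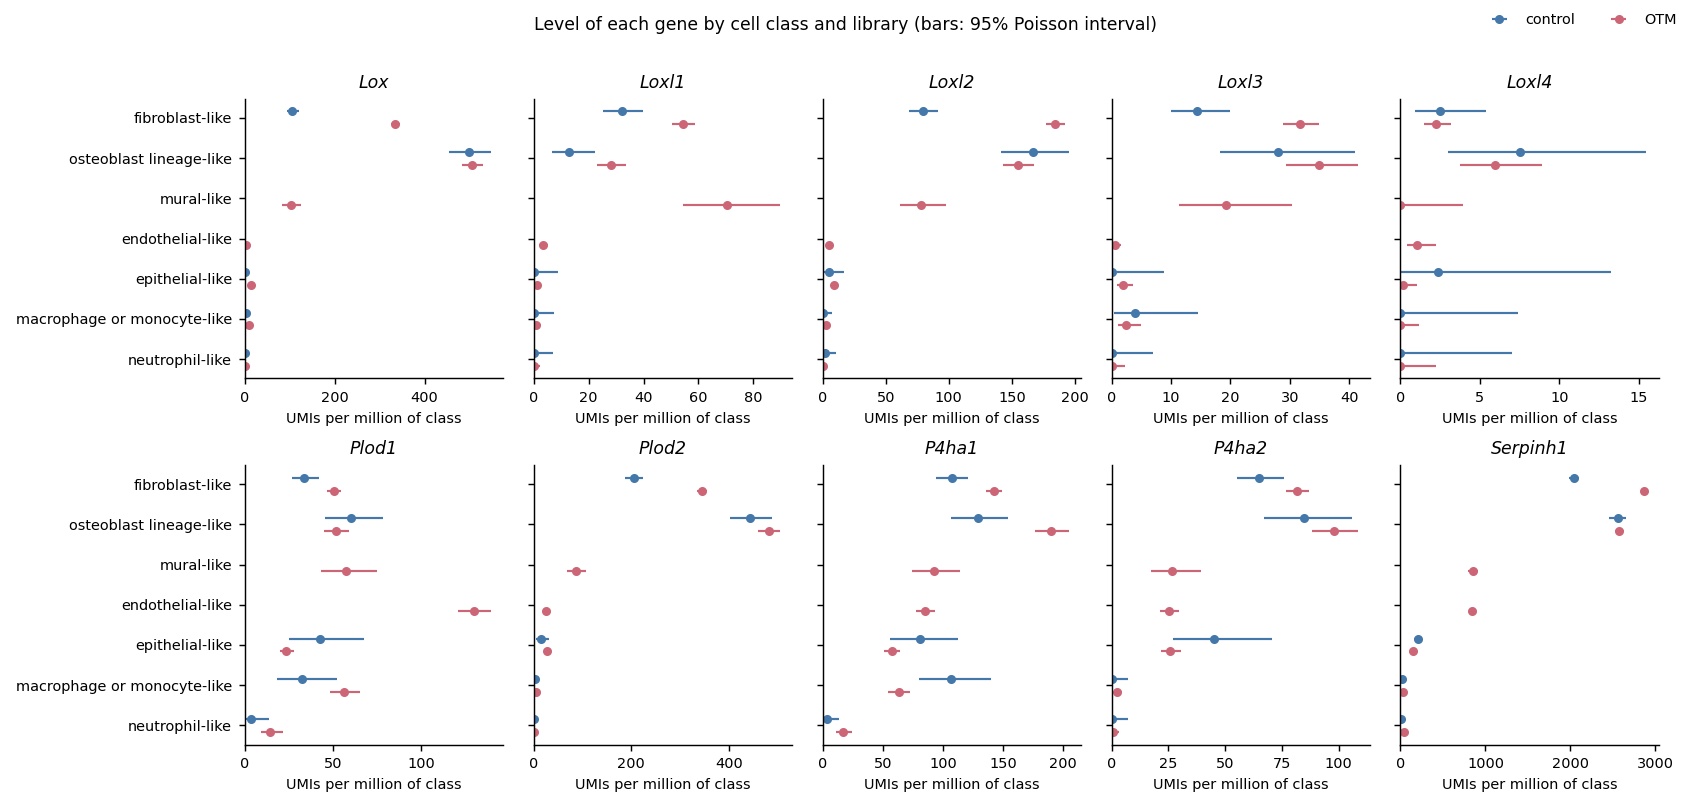
Level of each gene (x axis, CPM of the class, linear from 0) in 7 cell classes (y axis) of the control and OTM libraries, for classes with at least 20 cells in that library; points are summed levels and bars 95% Poisson intervals. Lox, Loxl2, Loxl3 and Plod2 are low outside stromal classes, whereas Plod1 is highest in OTM endothelial-like cells at 130 CPM and P4ha1 is present in macrophage or monocyte-like cells at 107 and 63.2 CPM.

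**Figure D2:**
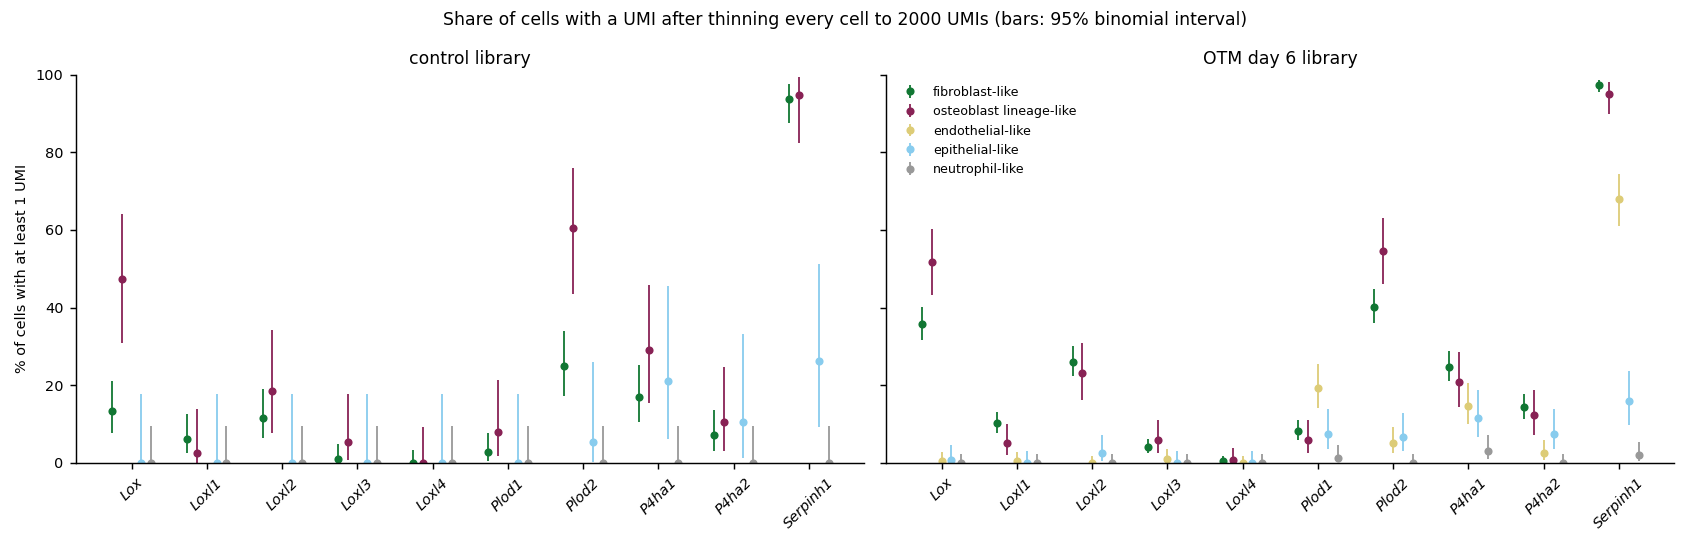
Percent of cells with at least 1 UMI of each gene (y axis) after thinning each cell to 2000 UMIs, for 5 cell classes in the control library (left) and the OTM library (right); bars are exact 95% binomial intervals and classes under 20 cells are not drawn. Lox stands at 35.9% of fibroblast-like and 51.8% of osteoblast lineage-like OTM cells, and Plod1 is highest in endothelial-like cells at 19.3%.

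In fibroblast-like cells every gene except Loxl4 had a higher level on the loaded side. Lox, the founding lysyl oxidase, was at 106 CPM (258 UMIs) in control cells and 335 CPM (4391 UMIs) in OTM cells, 3.16-fold higher (log2 1.66, interval 1.48 to 1.85). Loxl2, which also acts on basement membrane collagen, was at 79.3 CPM (193 UMIs) and 184 CPM (2420 UMIs, log2 1.22, interval 1.01 to 1.44). Loxl3 was at 14.4 CPM (35 UMIs) and 31.8 CPM (417 UMIs, log2 1.14, interval 0.65 to 1.69). Here and below, log2 stands for the log2 ratio of the OTM over the control level, and a value in parentheses after a pair of levels is that ratio with its interval. These 3 of 10 genes were at least 2-fold higher and 0 of 10 at least 2-fold lower, beside 6.02% and 9.1% of the 13784 genes measured.

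The other lysyl oxidases did not reach 2-fold. Loxl1, which is known for elastic fibres, was at 32.0 and 54.5 CPM (log2 0.77, interval 0.43 to 1.12). Loxl4 had 6 control and 29 OTM UMIs, too few to give a direction (log2 ratio -0.16, interval -1.45 to 1.40).

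The intracellular enzymes and Serpinh1 were each under 2-fold. Plod2, the telopeptide hydroxylase, was at 206 and 346 CPM (log2 0.75, interval 0.62 to 0.89), and Plod1 had a log2 ratio of 0.58 (0.25 to 0.93). P4ha1 had 0.41 (0.22 to 0.60) and P4ha2 0.33 (0.09 to 0.58). Serpinh1 was at 2037 CPM (4961 UMIs) and 2865 CPM (37608 UMIs), 1.41-fold higher (log2 0.49, interval 0.45 to 0.53). The median log2 ratio of the 10 genes was 0.66, and that of all genes measured was -0.04.

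These class ratios compare different mixtures of cells. The fibroblast-like class was made of 4 clusters, and the control cells were mostly in cluster 0 (leading genes Pcp4, Mfap4 and Wif1; 91 control and 116 OTM cells), while the OTM cells were most numerous in cluster 7 (Aspn, Postn and Tnn; 24 and 234 cells). Cluster 8 (Ccn5, Mmp13 and Sfrp4) held 134 cells and cluster 16 (led by the cell-cycle genes Pbk and Top2a) held 29, all of them OTM cells. With 1 library per group, a cluster found in 1 library cannot be told apart from that library.

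Within cluster 0, Lox was at 79.9 CPM in control cells and 110 CPM in OTM cells (log2 0.46, interval 0.18 to 0.76). Within cluster 7 it was at 223 and 336 CPM (log2 0.59, interval 0.30 to 0.90). Both clusters thus showed a smaller Lox ratio than the class as a whole, and the OTM-only clusters 8 and 16 held 472 CPM (interval 451 to 493) and 306 CPM (275 to 339). Lox was therefore lower in cluster 0 of either library than in any other fibroblast-like cluster. Leaving out the cell with the most Lox UMIs in each library gave 0.50 in cluster 0 and 0.68 in cluster 7.

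In CPM, Loxl2 pointed in opposite directions in the 2 shared clusters. In cluster 0 it was at 36.2 CPM (72 UMIs) in control cells and 62.6 CPM (151 UMIs) in OTM cells (log2 0.79, interval 0.38 to 1.22). In cluster 7 it was at 272 CPM (121 UMIs) and 177 CPM (948 UMIs, log2 -0.62, interval -0.90 to -0.34). The level of Loxl2 in control cluster 7 had an interval that overlapped that of the OTM-only cluster 8, at 264 CPM (248 to 280). One control cell held 23 of the 121 UMIs in cluster 7. Without the cell with the most Loxl2 UMIs in each library the ratio was -0.44 (-0.74 to -0.12). At 2000 UMIs per cell, Loxl2 was detected in 8 of 21 control cells and 61 of 225 OTM cells of cluster 7, with overlapping intervals (18.1 to 61.6% and 21.4 to 33.4%). Summed neutrophil markers in cluster 7 were 805 CPM in control cells and 199 CPM in OTM cells, with 3 and 2 of the 12 markers at 0. Loxl2 itself was at 1 and 0 UMIs in neutrophil-like cells of the 2 libraries.

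Plod2 was higher in OTM cells of both shared clusters, from 197 to 276 CPM in cluster 0 (log2 ratio 0.49, interval 0.30 to 0.67) and from 245 to 363 CPM in cluster 7 (0.57, 0.29 to 0.86). P4ha1 differed between them: it was 113 and 110 CPM in cluster 0 (-0.04, -0.30 to 0.23) and 81.0 CPM (36 UMIs) and 157 CPM (841 UMIs) in cluster 7 (0.95, 0.47 to 1.48). The difference between the clusters was not tested. Serpinh1 was 1888 and 2201 CPM in cluster 0 (0.22, 0.16 to 0.28) and 2708 and 2851 CPM in cluster 7, where the interval included 0 (0.07, -0.01 to 0.16) but excluded it without the cell with the most Serpinh1 UMIs in each library (0.14, 0.05 to 0.23). Its class ratio of 0.49 was thus larger than the ratio within either cluster.

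The remaining genes had intervals that included 0 in both clusters. In cluster 0, Loxl1 had a log2 ratio of 0.39, Plod1 0.42, P4ha2 -0.32 and Loxl3 -0.11. In cluster 7, Loxl1 had 0.56, Plod1 0.03, P4ha2 0.41 and Loxl3 1.41, the last from 3 control and 96 OTM UMIs (interval -0.18 to 3.71). Of the 9 genes measured in each cluster, 0 were at least 2-fold higher or lower in cluster 0, beside 3.13% and 4.76% of all genes. Loxl3 alone was at least 2-fold higher in cluster 7, beside 7.07%, and 0 were lower, beside 4.2%. Loxl4, with 4 and 2 UMIs in cluster 0 and 2 and 15 in cluster 7, fell under the filter on low counts.

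**Figure D3:**
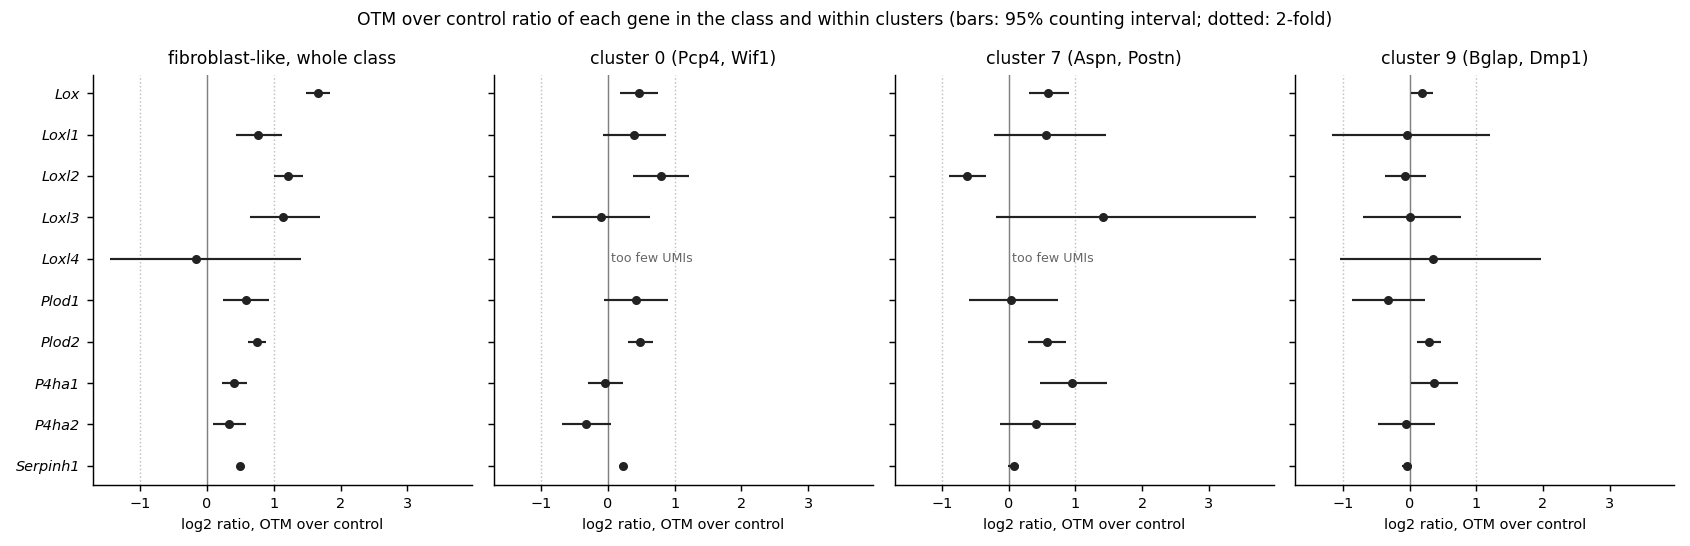
Log2 ratio of the OTM over the control level (x axis) of each gene (y axis) in the whole fibroblast-like class and in clusters 0, 7 and 9; bars are 95% counting intervals, the solid line marks equal levels and dotted lines a 2-fold difference. Lox stands at 1.66 in the class but at 0.46 and 0.59 in clusters 0 and 7, and Loxl2 stands at 0.79 in cluster 0 and -0.62 in cluster 7.

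Osteoblast lineage-like cells, taken as a class under the main settings, had ratios near 1 for Lox, Serpinh1 and Plod2 in CPM. Lox was at 500 CPM (465 UMIs) in control cells and 506 CPM (1953 UMIs) in OTM cells (log2 0.02, interval -0.13 to 0.17). Serpinh1 was at 2554 and 2575 CPM (0.01, -0.05 to 0.08) and Plod2 at 444 and 482 CPM (0.12, -0.04 to 0.28). P4ha1 was at 129 and 190 CPM (log2 0.56, interval 0.28 to 0.85). Only Loxl1 reached 2-fold, with 12 control and 108 OTM UMIs (1.12, 0.25 to 2.11), and 25.9% of its OTM UMIs came from 1 cell. Without the cell with the most Loxl1 UMIs in each library the ratio was 1.08 (0.08 to 2.26). The 2-fold call was lost in 11 of 16 alternatives, and the Loxl1 ratio fell below 0 in 2 of them. That is 1 of 10 genes higher and 0 lower, beside 7.64% and 3.55% of the 10935 genes measured. The median of the 10 genes was 0.07 and that of all genes 0.11. Relative to fibrillar collagen UMIs, Lox, Serpinh1 and Plod2 had higher OTM levels, with log2 ratios of 0.59, 0.58 and 0.69.

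A single control cell weighed on these values. It held 202268 UMIs, and with it 164 of the 465 control Lox UMIs, 125 of the 413 Plod2 UMIs and 446 of the 2377 Serpinh1 UMIs. Without the cell with the most UMIs of the gene in each library, the log2 ratio was 0.25 for Lox (0.07 to 0.43), 0.27 for Plod2 (0.09 to 0.45) and -0.04 for Serpinh1 (-0.11 to 0.03).

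The class joined cluster 9 (Bglap and Dmp1; 21 control and 54 OTM cells) with cluster 10 (Ibsp, Spp1 and Timp1; 18 and 88 cells). Of the 465 control Lox UMIs, 437 came from cluster 9, while most OTM cells were in cluster 10. In cluster 9, Lox was at 597 and 677 CPM (0.18, 0.02 to 0.34), Plod2 at 488 and 595 CPM (0.29, 0.11 to 0.46) and P4ha1 at 124 and 160 CPM (0.36, 0.02 to 0.72). The other 7 genes had intervals that included 0, and 0 of 10 were at least 2-fold higher or lower, beside 5.81% and 2.86% of all genes. The cell of 202268 UMIs belonged to this cluster. Without the cell with the most UMIs of the gene in each library, Lox had 0.35 (0.16 to 0.55), Plod2 0.44 (0.23 to 0.66) and P4ha1 0.34 (-0.05 to 0.76), and Serpinh1 had a ratio below 0 with an interval that excluded it (-0.14, -0.22 to -0.05). Summed endothelial markers in cluster 9 were 191 CPM in control cells and 20.3 CPM in OTM cells, with 1 and 6 of the 10 markers at 0, and osteoblast lineage markers were 16899 and 28102 CPM. Their part in the ratios was not tested.

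Cluster 10 had under 20 control cells, and its control levels are given as values only. Lox was at 141 CPM (28 UMIs) in control cells and 367 CPM (784 UMIs) in OTM cells, and Serpinh1 at 1781 CPM (354 UMIs) and 2473 CPM (5276 UMIs). Loxl1 and Loxl3 had 2 control UMIs each.

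Over all 160 control and 690 OTM stromal cells, 0 of the 10 genes were at least 2-fold higher or lower, beside 5.93% and 7.6% of all genes measured. Lox was at 211 and 359 CPM (log2 ratio 0.77, 0.66 to 0.88), Loxl2 at 101 and 172 CPM (0.77, 0.61 to 0.93) and Serpinh1 at 2141 and 2697 CPM (0.33, 0.30 to 0.37). Loxl4, at 13 and 52 UMIs, was the 1 gene with a ratio below 0, and its interval included 0 (-0.38, -1.28 to 0.62). The median of the 10 genes was 0.43, beside -0.01 for all genes.

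The fibrillar collagens on which these enzymes act were themselves unequal between the libraries, so each gene was also counted per 10000 UMIs of Col1a1, Col1a2 and Col3a1 together. This quantity needs no scaling by library total. In fibroblast-like cells Lox was at 26.0 per 10000 collagen UMIs in the control and 51.2 in the OTM library (log2 0.98, interval 0.80 to 1.17). Loxl2 was at 19.4 and 28.2 (0.54, 0.33 to 0.76). Plod2 was at 50.4 and 52.9, with an interval that included 0 (0.07, -0.06 to 0.21). Serpinh1 was lower per collagen UMI in the OTM library, at 499 and 438 (-0.19, -0.23 to -0.14), as was P4ha1, at 26.3 and 21.8 (-0.27, -0.46 to -0.08). P4ha2 was also lower, at 15.9 and 12.5 (-0.35, -0.59 to -0.09). In the whole class Lox and Loxl2 were thus higher on this scale, and Serpinh1, P4ha1 and P4ha2 lower. The intervals of Loxl1, Loxl3, Loxl4, Plod1 and Plod2 included 0. Neither shared cluster showed both parts of this split.

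The 2 shared clusters again differed. In cluster 0 the 3 collagens made up 3.0% of control and 4.84% of OTM UMIs. Per 10000 of these, Lox was at 26.6 and 22.8 (-0.23, -0.51 to 0.07), Serpinh1 at 629 and 455 (-0.47, -0.53 to -0.41) and P4ha1 at 37.7 and 22.8 (-0.73, -0.99 to -0.46). P4ha2 (-1.01, -1.38 to -0.65), Loxl3 (-0.80, -1.53 to -0.06) and Plod2 (-0.20, -0.39 to -0.02) were also lower, although Plod2 was higher in CPM, and the intervals of Loxl1, Loxl2, Loxl4 and Plod1 included 0. In cluster 7 the collagens made up 8.91% and 7.62% of UMIs, and Lox, Serpinh1 and P4ha1 were higher in the OTM library: Lox at 25.0 and 44.1 (0.82, 0.53 to 1.13), Serpinh1 at 304 and 374 (0.30, 0.22 to 0.39) and P4ha1 at 9.08 and 20.6 (1.18, 0.70 to 1.70). Plod2 (0.79, 0.52 to 1.09) and P4ha2 (0.63, 0.09 to 1.23) were higher as well. So were Loxl1 (0.79, 0.01 to 1.68) and Loxl3 (1.63, 0.04 to 3.94), from 14 and 3 control UMIs, although their CPM intervals in cluster 7 included 0. Loxl2 was lower, at 30.5 and 23.2 (-0.40, -0.67 to -0.11). Loxl2 in cluster 0 was at 12.1 and 12.9 (0.10, -0.31 to 0.53), so on this scale its interval in cluster 0 included 0. On this scale the intervals of Lox in the 2 clusters of the control library overlapped, whereas its CPM there was 79.9 in cluster 0 and 223 in cluster 7.

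In osteoblast lineage-like cells the 3 collagens made up 11.2% of control and 7.55% of OTM UMIs. Per 10000 of these, Lox was at 44.5 and 67.0 (0.59, 0.44 to 0.74), Plod2 at 39.6 and 63.8 (0.69, 0.53 to 0.85), Serpinh1 at 228 and 341 (0.58, 0.52 to 0.65) and P4ha1 at 11.5 and 25.2 (1.13, 0.85 to 1.42). Within cluster 9 the ratios were 0.41 for Lox (0.25 to 0.57), 0.51 for Plod2 (0.34 to 0.69) and 0.19 for Serpinh1 (0.12 to 0.27). Lox, Serpinh1 and Plod2, near 1 in class CPM ratio, were thus higher per collagen UMI in OTM cells of the class and cluster 9. Cluster 10 had 18 control cells. There Plod2 was at 82.4 and 88.1, Serpinh1 at 521 and 558, P4ha1 at 42.7 and 48.5 and Lox at 41.2 and 82.9. The collagens made up 13.3% of control UMIs in cluster 9 and 3.42% in cluster 10. The cell of 202268 UMIs was kept in these values. The part of that cell and of the cluster mixture was not tested.

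Among OTM cells, Lox per 10000 collagen UMIs ranged over the 6 fibroblast-like and osteoblast lineage-like clusters from 22.8 in cluster 0 (20.1 to 25.7) through 44.1 in cluster 7 (42.1 to 46.1), 57.6 in cluster 16 (51.8 to 63.8), 59.3 in cluster 9 (56.0 to 62.8) and 72.8 in cluster 8 (69.6 to 76.1) to 82.9 in cluster 10 (77.2 to 89.0). Clusters 16 and 9 had overlapping intervals, and the other neighbours in that order did not. Serpinh1 had another order: cluster 9, with the most collagen at 11.4% of its UMIs, was lowest at 237 (230 to 243), and clusters 10 and 16 were highest at 558 (543 to 573) and 557 (539 to 576).

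**Figure D4:**
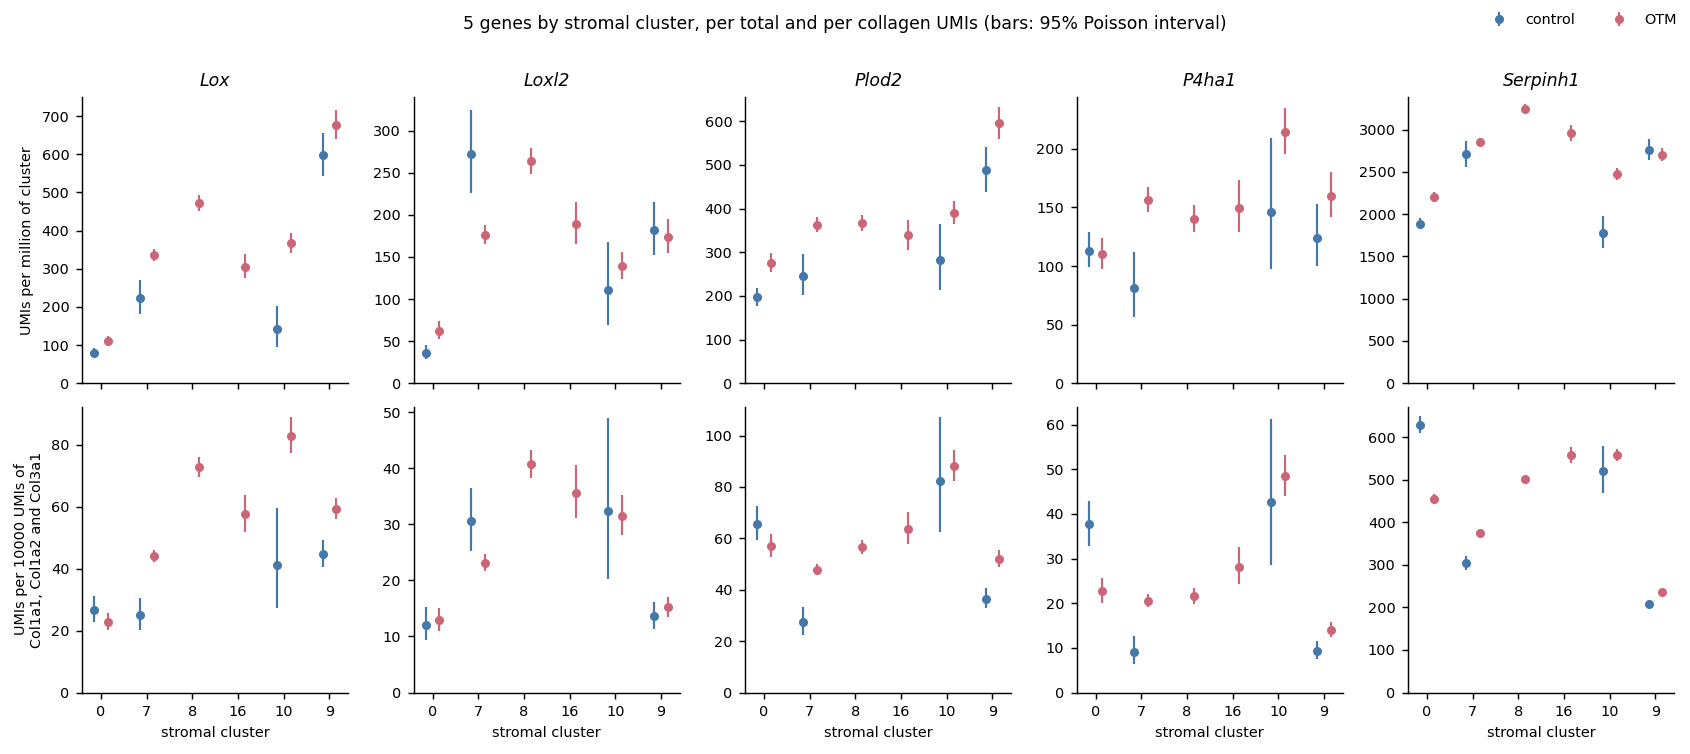
Level of Lox, Loxl2, Plod2, P4ha1 and Serpinh1 in 6 stromal clusters (x axis; clusters 0, 7, 8 and 16 are fibroblast-like, 10 and 9 osteoblast lineage-like), as CPM of the cluster (top) and per 10000 UMIs of Col1a1, Col1a2 and Col3a1 (bottom); bars are 95% Poisson intervals and clusters 8 and 16 have no control cells. Lox per collagen UMI lies between 22.8 and 82.9 in OTM clusters, and Loxl2 is at 272 CPM in control and 177 CPM in OTM cells of cluster 7.

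Genes of the same process were counted beside the 10, in fibroblast-like cells, where 6.02% of all genes measured were at least 2-fold higher and 9.1% lower. Among other hydroxylation and glycosylation genes, 1 of 10 measured was at least 2-fold higher and 0 lower, with a median log2 ratio of 0.44. The one was P4ha3, a further prolyl 4-hydroxylase alpha subunit, at 35.3 and 105 CPM (1.57). P4hb, the shared beta subunit, had 0.48, the cyclophilin Ppib 0.31, and Crtap, a partner of prolyl 3-hydroxylase, -0.36. Among 18 folding and export genes the median was 0.29, and 1 was at least 2-fold higher: Fkbp10, a chaperone linked to telopeptide hydroxylation by Plod2, at 138 and 279 CPM (1.01). The general chaperones Hspa5 and Hsp90b1 had -0.11 and 0.42, and Mia2 had -0.15. Within clusters 0 and 7 the hydroxylation and glycosylation list had medians of 0.16 and 0.09, and the folding and export list 0.02 and 0.29.

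Procollagen trimming and lysyl oxidase activation or docking genes had a median of 0.71, with 4 of 16 at least 2-fold higher and 0 lower. Sparc had a log2 ratio of 0.17, Postn, which is known to support the activation of lysyl oxidase by Bmp1, 0.90, Pcolce2 1.68 (4 and 69 UMIs) and Fbln5 -0.62. Postn and Fmod of this list are also fibroblast markers. The substrates had a median of 1.24, with 11 of 15 at least 2-fold higher and 1 lower. Col1a1 and Col1a2 had 0.53 and 0.57, Col5a3 was at 9.86 and 241 CPM (4.61), and elastin (Eln) was at 59.5 and 30.6 CPM (-0.96). The lower one was Col2a1, named after its values were seen. Col5a3 is also a leading gene of the OTM-only cluster 8. In cluster 0 the substrate median was 0.76, with 6 of 14 higher and 0 lower, beside 3.13% and 4.76% of all genes. In cluster 7 it was 0.63, with 5 of 14 higher and 0 lower, beside 7.07% and 4.2%. The median of the trimming and docking list was 0.30 in cluster 0 and 0.21 in cluster 7. Substrates and trimming genes took part in the clustering, unlike the 10 genes.

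Pathways known to act on these genes were listed too. Hypoxia response genes had a median of -0.42 in fibroblast-like cells, with 1 of 14 at least 2-fold higher and 1 lower. Vegfa had -0.47, Ldha -0.02, Pfkfb3 1.10 and Adm, at 73.5 and 22.2 CPM, -1.73. Within cluster 0 the hypoxia median was -0.11, with 1 of 13 higher and 0 lower, beside 3.13% and 4.76% of all genes. Within cluster 7 it was 0.05, with 0 of 13 higher and 1 lower, beside 7.07% and 4.2%. The part of this pathway in the ratios of the 10 genes was not tested. TGF-beta response genes had a median of 0.15 with 0 of 11 higher and 1 lower. Ccn2 had 0.43, Tgfb1 0.63 and Skil -1.46. In cluster 7 the TGF-beta median was 0.91, with 4 of 11 higher and 0 lower, beside 7.07% and 4.2% of all genes. In cluster 0 it was -0.13, with 0 higher and 1 lower, beside 3.13% and 4.76%. The part of TGF-beta was not tested either.

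The unfolded protein response list had a median of 0.03, with 0 of 8 higher and 1 lower. Manf had 0.69, Sdf2l1 0.74 and Dnajb9 -1.23. The median of the unfolded protein response list was -0.08 within cluster 0 and 0.39 within cluster 7. Dissociation and immediate early genes, which respond to tissue digestion, had a median of -0.73 with 0 of 15 higher and 3 lower. Fos was at 3880 and 2372 CPM, Hspa1a had a ratio of -0.77, Nr4a1 -1.74 and Dusp1 0.42. The median of this list was -0.62 within cluster 0, with 0 higher and 1 lower, and 0.30 within cluster 7, with 0 of 15 past 2-fold. Their part in the ratios of the 10 genes was not tested.

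Over the 14 combinations of class and library with at least 20 cells, which share 2 libraries and differ in depth, the 10 genes varied together to unequal degrees. Lox correlated with Loxl3 at Pearson r = 0.98 and with Plod2 at 0.97, and Serpinh1 with P4ha2 at 0.95 (log2 of CPM plus 10). Plod1 correlated with Lox at 0.48 and with Loxl2 at 0.35. Among 11486 other genes, those closest to Lox were Pdgfra, Ndrg4 and Srpx2 (all r = 0.98), and those closest to Plod2 were Rcn3, Cacnb3 and Pcolce (0.99, 0.99 and 0.98). Serpinh1 was closest to Sparc, Rbfox2 and Fkbp10 (all 0.99), and P4ha2 to Dsel, Rcn1 and Ackr3 (0.99, 0.98 and 0.98).

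Loxl1 was closest to Rasl11a, Prrx1 and Fhl1 (0.99, 0.98 and 0.98), Loxl2 to Epdr1, Col5a1 and Runx1t1 (0.98, 0.93 and 0.93) and Loxl3 to Slit2, Tspan11 and Pdgfra (all 0.97). Plod1 was closest to Ppfibp1, Capn2 and Dst (0.96, 0.94 and 0.94), and P4ha1 to Cnpy4, Itm2c and Slc39a14 (0.97, 0.97 and 0.96). Loxl4 had too few UMIs for this measure. These values describe in which classes a gene was found.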

How the data were processed

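The authors deposited whole-number counts of UMIs per gene and cell barcode, not normalized, 1 table per library. Per the labels' protocols, tissue was digested with collagenase and then trypsin and libraries were made with a 10x Genomics 3' kit. Cell Ranger 7.0.1, Seurat and the builds mm10 and GRCm38 are named in the submitters' processing notes. The Seurat version and any filter on cells are not given in the sources used here.

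Cells with at least 200 genes and at most 20% mitochondrial UMIs were kept, which removed 21 control and 127 OTM barcodes. Scrublet called 2 control and 8 OTM cells as doublets, which were kept. Both libraries were clustered together with scanpy 1.11.5 and igraph 0.11.9 (2000 variable genes without the 10 genes, 30 components, 15 neighbours, Leiden resolution 1, seed 0). Clusters were named from 19 marker lists; cluster 1 (50 control and 22 OTM cells, median 744.5 and 2234 UMIs) stayed unnamed. Counts were summed per class and library and divided by the class total.

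A gene counted as measured with at least 20 UMIs over both libraries and at least 3 expected in each at equal levels, and as higher or lower past 2-fold. No statistical test was possible with 1 library per group. The ratio and interval functions were tested on simulated counts. From the other lists the text names the 2 most abundant genes and those with the largest and smallest ratio (at least 20 UMIs in the higher library), and for likeness the 3 genes with the highest correlation among those with at least 200 UMIs. A gene that this rule also names is not reported here. The 10 genes and all lists were chosen with earlier results of these data known. Promoters come from RefSeq and gene positions from GENCODE M21.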

Additional observations from a re-analysis of the deposited data

Results flagged for a closer look

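Loxl2 had CPM ratios of opposite direction in the 2 fibroblast-like clusters that both libraries shared: its log2 ratio of OTM over control was 0.79 in cluster 0 and -0.62 in cluster 7. Each interval excluded 0 in CPM. Per 10000 fibrillar collagen UMIs the ratio was 0.10 in cluster 0 (interval -0.31 to 0.53) and -0.40 in cluster 7 (-0.67 to -0.11), so on that scale the interval in cluster 0 included 0. The difference between the clusters was not tested, since each group had 1 library.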

How the results depend on the processing

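The alternatives by single cluster and without the cell with the most UMIs of the 10 genes were chosen after seeing the data. These counts take all 10 genes, with no filter on low counts. In fibroblast-like cells the count of 3 genes at least 2-fold higher was 0 in cluster 0 alone, 1 in cluster 7 alone and 1 in the clusters with cells of both libraries. The count lower went from 0 to 1 in cluster 0 alone, where it was Loxl4, which with 4 and 2 UMIs is not among the 9 genes measured there, and to 1 with each library clustered alone. Loxl3 was -0.11 in cluster 0 alone and Loxl2 -0.62 in cluster 7 alone. Lox ranged from 0.46 to 2.07 over 18 alternatives and the median of the 10 genes from 0.31 to 0.80, all above 0.

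In osteoblast lineage-like cells the count of 1 gene higher was 0 with the mean over cells, cluster 9 alone, without the cell with the most UMIs, no filter or a stricter filter on cells, doublets removed, no gene left out of the clustering, resolution 0.5 or 1.5, each cell's own scores and cells thinned before clustering. It was 3 in cluster 10 alone, where the count lower was 1. Cluster 10 had 18 control cells, with Loxl1 detected in 2 of them and Loxl3 and Loxl4 in 1 each. No all-gene share is given for cluster 10, so its counts are not read as a result. Loxl1 was -0.036 in cluster 9 alone and -0.089 without a filter on cells. Over 16 alternatives Lox ranged from -0.09 to 1.38, Plod2 from 0.04 to 0.47 and Serpinh1 from -0.07 to 0.47. The class itself held 21 control and 53 OTM cells without a filter on cells, and 20 and 53 with cells thinned before clustering. In all stromal cells the count of 0 higher was 1 with the mean over cells, 1 without the cell with the most UMIs and 2 with each library clustered alone. The causes of these shifts were not tested. Each library clustered alone left 0 control osteoblast lineage-like cells and gave no value for that class.

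The all-gene shares moved too: without a filter on genes, up to 37.1% of genes were at least 2-fold lower in fibroblast-like cells. No paired analysis was possible because each group has 1 library. Control classes are small, 115 fibroblast-like and 39 osteoblast lineage-like cells, and this limits Loxl3, Loxl4 and Loxl1 most.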
